A study of Homo sapiens with 519 samples.

Results

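NSC80997, a compound known here by its code name, was one of the agents given to SK-N-BE(2) cells, an established human neuroblastoma line with an amplified MYCN gene. Its libraries were taken by their labels and number 14 of the 519 in the series. In the second of 4 experiments the compound was given at 2.5 and 7.5 for 6 h and 24 h, with 3 libraries for each dose and time beside 6 control libraries per time. In the first experiment it was given at 10 for 24 h in 1 well on each of 2 plates, beside 4 DMSO wells per plate, 8 in all. The labels give the second experiment's doses in mM and the first experiment's dose with no unit, so doses are printed as labelled and are not compared between the experiments. The second experiment's controls are labelled only as control, and its protocol describes wells with DMSO alone. No other allele or agent is named for these groups, and no source says that replicate wells came from separate cultures, so p-values measure the spread between wells, which may be technical.

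Cells make cholesterol from acetyl-CoA by a chain of enzymes that runs through HMG-CoA, mevalonate, squalene and lanosterol. Many genes of this chain are switched on together by SREBP transcription factors, which SCAP carries from the endoplasmic reticulum to the Golgi for cleavage when membrane sterol is low. INSIG proteins hold SCAP back when sterol is plentiful, and INSIG1 is itself an SREBP target, so its RNA is a common readout of this pathway. Neuroblastoma cells, like other dividing cells, both make cholesterol and take it up from outside.

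The 250 bases before the RefSeq start of 3 genes that fell are shown because they are the regions in which regulators of these genes are known to act. MSMO1 encodes sterol-C4-methyl oxidase, INSIG1 the sterol sensor's retention protein, and HMGCS1 the enzyme that makes HMG-CoA. Each is written 5′ to 3′ on the gene's strand, from RefSeq with build GRCh38.p14, and capitals mark CCAAT on either strand, the box bound by NF-Y. The MSMO1 window is chr4:165327419-165327668 on the plus strand, the INSIG1 window chr7:155297628-155297877 on the plus strand, and the HMGCS1 window, before 1 of its 2 listed starts, chr5:43313413-43313662 on the minus strand.

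MSMO1: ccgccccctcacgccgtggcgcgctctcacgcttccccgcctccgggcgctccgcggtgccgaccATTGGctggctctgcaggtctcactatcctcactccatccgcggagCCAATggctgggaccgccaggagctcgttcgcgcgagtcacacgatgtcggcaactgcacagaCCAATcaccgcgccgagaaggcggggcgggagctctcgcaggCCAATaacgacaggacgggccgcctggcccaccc

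INSIG1: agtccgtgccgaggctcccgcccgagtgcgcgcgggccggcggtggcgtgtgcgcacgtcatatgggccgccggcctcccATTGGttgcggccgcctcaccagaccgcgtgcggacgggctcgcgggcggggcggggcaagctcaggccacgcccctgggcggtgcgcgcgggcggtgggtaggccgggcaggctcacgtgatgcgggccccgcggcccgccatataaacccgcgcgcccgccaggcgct

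HMGCS1: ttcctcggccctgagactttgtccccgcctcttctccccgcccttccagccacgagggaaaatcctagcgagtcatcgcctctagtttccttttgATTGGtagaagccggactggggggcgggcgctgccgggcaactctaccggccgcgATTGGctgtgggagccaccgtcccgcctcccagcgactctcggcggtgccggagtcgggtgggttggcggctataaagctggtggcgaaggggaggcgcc

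CCAAT occurred 4 times in the MSMO1 window, 1 time in the INSIG1 window and 2 times in the HMGCS1 window, and 32% of the 35116 windows of that length in the table hold it on either strand. The window before the other HMGCS1 start held it 0 times. The windows before the 3 listed starts of IDI1, another gene that fell, held it 0, 3 and 2 times. The letters TCACNCCAC, a form of the sterol regulatory element searched on both strands, were in none of these windows and in 0.883% of all windows.

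The deposited values are counts per gene, and levels are given below as CPM, the count divided by the scaled library size on the usual CPM scale. Totals of the 12 NSC80997 libraries of the second experiment ran from 976194 to 1638769 counts, those of its 6 h controls from 1031590 to 1756008 and those of its 24 h controls from 1541946 to 1901416. The 3 libraries at 7.5 for 24 h held 976194 to 1470873 counts, each fewer than any 24 h control. The part of this difference in the results was not tested. The 2 NSC80997 libraries of the first experiment held 1327621 and 1914160 counts, and its DMSO wells 1683983 to 2607422. Of 11 neuroblast markers 11 were detected in every group described here. Markers of fibroblasts, immune, endothelial, epithelial and liver cells summed to 225 to 237 CPM after 7.5 for 24 h against 161 to 219 in its controls, and to 96.6 to 100 against 38.8 to 90.5 in the first experiment, so both sums lay above their controls. PDGFRB led that sum, at 110 to 132 CPM against 69.7 to 93.8 and at 80.5 to 88.9 against 22.2 to 70.6, while ALB, CD3E, COL1A2 and PECAM1 were at 0 in all NSC80997 libraries of the second experiment. Their part in the results was not tested. In bulk libraries fewer cells of a type and less RNA per cell cannot be told apart.

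After 6 h the cells exposed to NSC80997 held less RNA for enzymes of cholesterol synthesis and for INSIG1, and few other genes passed the test. At 7.5, 8 of 11460 genes tested were lower than in the controls (0.0698%) and 0 were higher (0%) at an adjusted p under 0.05 in edgeR's quasi-likelihood test with Benjamini-Hochberg adjustment over all genes tested. At an unadjusted p under 0.05 there were 819 genes, and DESeq2 called 13. The 8 genes included HMGCS1, MSMO1, INSIG1, IDI1, TMEM14B, FDFT1 and SCD. The count was 5 with only NSC80997 7.5 and control libraries in the fit and 22 without a filter on low counts, and it was 4 without the first or the second treated library or 1 of the controls. At 2.5, 5 genes were lower (0.0436%) and 0 higher (0%), with 720 at an unadjusted p under 0.05 and 6 called by DESeq2, and the 5 included INSIG1, MSMO1, FDFT1 and SCD. Both doses were set against the same 6 control wells.

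MSMO1, which removes the methyl groups at carbon 4 of the sterol ring, stood at 90.6, 51.8 and 52.0 CPM at 7.5 and at 85.3, 89.6 and 91.2 CPM at 2.5, against 286 to 334 CPM (median 310) in the 6 h controls. All 6 treated libraries lay far below all controls. The fitted log2 change was −2.27 at 7.5 (SE 0.20, adjusted p = 1.36e-15 in edgeR), a level 4.84-fold lower, and −1.81 at 2.5 (SE 0.19, adjusted p = 9.72e-12 in edgeR). Both calls held with any 1 library left out.

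HMGCS1, HMG-CoA synthase, had few counts. Its libraries at 7.5 held 1.65, 0 and 5.06 CPM, from 2, 0 and 7 counts, and those at 2.5 held 6.29, 6.53 and 11.3 CPM, against 17.4 to 38.7 CPM (median 24.2) in the controls. The treated libraries of both doses lay below every control. At 7.5 the log2 change was −3.53 (SE 0.69, adjusted p = 0.00503 in edgeR), and at 2.5 it was −1.73 (SE 0.51) and did not pass (adjusted p = 0.394 in edgeR). IDI1, the isomerase that makes the activated isoprene unit, passed at the same dose, with 5.77, 19.5 and 11.6 CPM at 7.5 and 18.9, 19.6 and 12.7 CPM at 2.5 against 29.0 to 49.6 CPM. Its log2 change was −1.71 at 7.5 (SE 0.39, adjusted p = 0.0438 in edgeR), and at 2.5 it did not pass (−1.28, SE 0.36, adjusted p = 0.362 in edgeR). The HMGCS1 call was lost without the first or the second NSC80997 library (adjusted p up to 0.199 in edgeR), and the IDI1 call held in 1 of 9 fits that left out a library (adjusted p up to 0.374 in edgeR) and was lost with only NSC80997 7.5 and control libraries in the fit (adjusted p = 0.135 in edgeR).

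FDFT1, squalene synthase, the first step committed to sterols, was at 68.4, 84.8 and 101 CPM at 7.5 and at 89.5, 94.3 and 72.1 CPM at 2.5, against 123 to 180 CPM in the controls. The groups did not overlap, and the change was smaller than that of MSMO1, with a log2 value of −0.87 (SE 0.18, adjusted p = 0.0201 in edgeR) at 7.5 and −0.88 (SE 0.19, adjusted p = 0.019 in edgeR) at 2.5. These calls were lost when only NSC80997 and control libraries were fitted, when genes were not filtered, and without some single libraries: at 7.5 without the first or second treated or 1 control library (adjusted p up to 0.33 in edgeR), and at 2.5 without any 1 treated or 1 control library (adjusted p up to 0.381 in edgeR).

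Over the whole chain, 4 of the 20 cholesterol synthesis genes tested passed the test as lower at 7.5 and 2 of 20 at 2.5, and none as higher. Over all genes tested 0.0698% passed as lower at 7.5 and 0.0436% at 2.5. Of these 20, 19 had a fitted change below 0 at each dose, where 52.4% of all genes tested did at 7.5 and 52% at 2.5. Their median log2 change was −1.05 at 7.5 and −0.94 at 2.5, where the median over all genes tested was −0.02 at both. Every treated library was below every control for 6 of the 20 at 7.5, a pattern shown by 1.82% of all genes tested, and for 7 of 20 at 2.5, against 1.27% of all genes tested. DHCR7, which carries out the last reduction to cholesterol, had non-overlapping groups at 33.8, 10.5 and 25.3 CPM against 56.8 to 74.4 CPM, with a log2 change of −1.51 (SE 0.38) that did not pass (adjusted p = 0.16 in edgeR). DESeq2 called DHCR7 at both doses, and at 2.5 edgeR called it with only the groups compared and without a filter on low counts. At 7.5 it was not called with only the groups compared in the fit. MVK, mevalonate kinase, had no count in the 3 libraries at 7.5, and with that gene set at the floor of 3 counts over the group the list's median was again −1.05.

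INSIG1 was at 19.0, 9.01 and 18.1 CPM at 7.5 and at 17.5, 14 and 14.8 CPM at 2.5, against 42.5 to 91.7 CPM (median 67.7) in the 6 h controls. The treated libraries of both doses lay well under the lowest control. The log2 change was −2.16 (SE 0.40, adjusted p = 0.00191 in edgeR) at 7.5 and −2.13 (SE 0.40, adjusted p = 0.00238 in edgeR) at 2.5. The call was lost without the second library at 7.5 (adjusted p = 0.131 in edgeR) and without the third at 2.5 (adjusted p = 0.0808 in edgeR). INSIG1 was 1 of 6 tested genes of the sensing and cleavage group (SREBF1, SREBF2, SCAP, the INSIG genes and the site 1 and site 2 proteases), and the other 5 did not pass. Of all genes tested 0.0698% passed as lower at 7.5 and 0.0436% at 2.5.

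SCD, the desaturase that makes oleate and a target of SREBP1, was the 1 gene of 14 tested in the fatty acid group to pass, with 170, 166 and 113 CPM at 7.5 against 210 to 281 CPM. Its log2 change was −0.75 (SE 0.17, adjusted p = 0.0332 in edgeR) at 7.5 and −0.84 (SE 0.17, adjusted p = 0.00946 in edgeR) at 2.5. The SCD call held in 3 of 9 fits that left out a library at 7.5 (adjusted p up to 0.472 in edgeR) and in 7 of 9 at 2.5, where it was lost without the first or the third treated library (adjusted p up to 0.215 in edgeR). The fatty acid group as a whole had a median log2 change of −0.16 and −0.09 at these doses, where the median over all genes tested was −0.02 at both. Of all genes tested 0.0698% passed as lower at 7.5 and 0.0436% at 2.5.

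**Figure D1:**
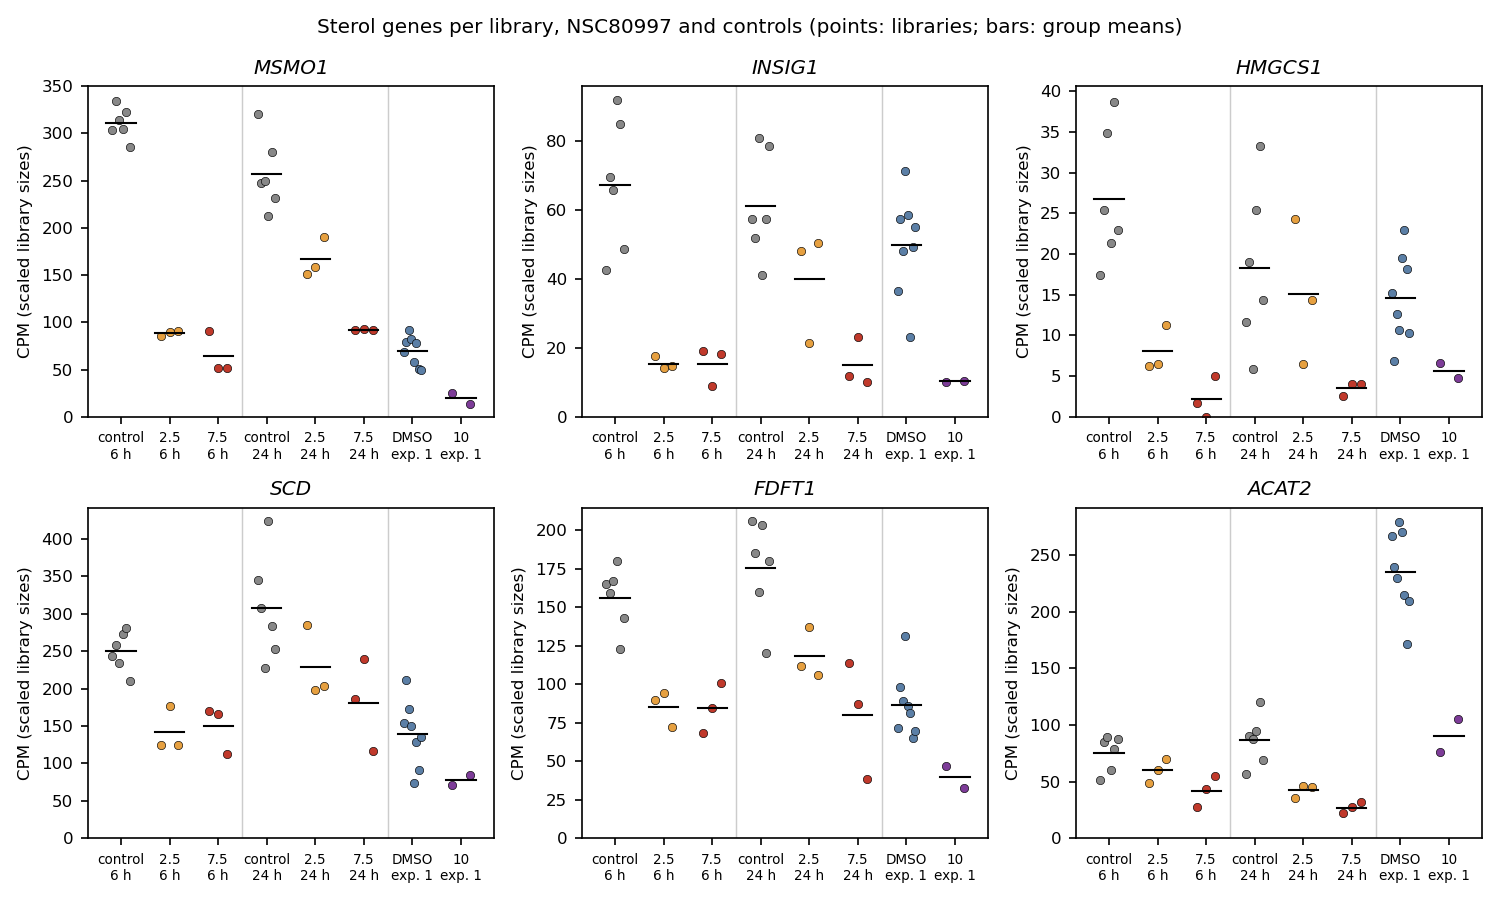
CPM per library (y axis, linear from 0) for MSMO1, INSIG1, HMGCS1, SCD, FDFT1 and ACAT2 in controls and NSC80997 groups of the second experiment at 6 h and 24 h and in DMSO and NSC80997 wells of the first experiment (exp. 1); points are libraries and bars are group means. At 6 h the treated points of MSMO1, at 51.8 to 91.2 CPM, sit under all controls, which start at 286 CPM.

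TMEM14B, a small membrane protein on none of the sterol lists, was also called at 7.5. It stood at 22.2, 73.5 and 54.2 CPM against 102 to 150 CPM in the controls, with no overlap, and its log2 change was −1.35 (SE 0.30, adjusted p = 0.0322 in edgeR). That call was lost without the first or the third treated library or either of 2 controls (adjusted p up to 0.459 in edgeR).

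After 24 h at 7.5 more genes passed than after 6 h. Tested directly, the response at 7.5 differed between the times for 1 of 12121 genes (0.00825%). Of 11539 genes tested against the 24 h controls, 27 were lower (0.234%) and 44 higher (0.381%), and 64 of these 71 had groups that did not overlap. Every treated library lay above every control in 2.65% and below every control in 2.9% of all genes tested. At an unadjusted p under 0.05 there were 1255 genes. The count of 71 became 22 without the first, 42 without the second and 23 without the third NSC80997 library, 29 with only NSC80997 7.5 and control libraries in the fit, 35 with edgeR's older quasi-likelihood method and 117 with DESeq2. DESeq2 adjusted over 3262 genes, and its 117 included 45 of the 71. Of the 20 cholesterol synthesis genes 4 were lower, ACAT2, FDFT1 and MSMO1 among them, and none higher. A change below 0 was fitted for 17 of the 20, where 52% of all genes tested had one. The median log2 change was −0.81 against −0.03 over all genes tested. In 9 of the 20 every treated library lay below every control, the pattern of that 2.9%.

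MSMO1 was at 91.9, 92.4 and 91.8 CPM against 213 to 320 CPM in the 24 h controls, a log2 change of −1.48 (SE 0.18, adjusted p = 1.27e-08 in edgeR). INSIG1 was at 11.9, 23.1 and 10.2 CPM against 41.0 to 80.7 CPM, a log2 change of −1.94 (SE 0.43, adjusted p = 0.0111 in edgeR). Neither gene's groups overlapped. The MSMO1 call held with any 1 library left out, and the INSIG1 call was lost without the first or the third treated library (adjusted p up to 0.129 in edgeR).

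ACAT2, the cytosolic thiolase that condenses acetyl-CoA at the start of the chain, passed at 24 h and not at 6 h. Its libraries held 22.1, 27.8 and 31.6 CPM against 56.7 to 120 CPM, a log2 change of −1.66 (SE 0.28, adjusted p = 7.79e-05 in edgeR), while at 6 h the change was −0.84 (SE 0.24, adjusted p = 0.323 in edgeR) with overlapping groups. The call held with any 1 library left out. The difference between these times was −0.82 (SE 0.38) and did not pass (adjusted p = 0.63 in edgeR).

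FDFT1 was at 114, 86.9 and 38.8 CPM against 120 to 206 CPM, and 1 library was far below the other two, with a log2 change of −1.11 (SE 0.21, adjusted p = 0.00109 in edgeR). HMGCS1 was again low, at 2.55, 4.08 and 4.08 CPM from 3, 6 and 4 counts, against 5.91 to 33.3 CPM, but its log2 change of −2.31 (SE 0.68) did not pass (adjusted p = 0.0994 in edgeR). ERLIN1, an endoplasmic reticulum protein that binds cholesterol and takes part in protein degradation at that membrane, was at 14.5, 12.2 and 14.3 CPM against 21.0 to 61.6 CPM, a log2 change of −1.68 (SE 0.44, adjusted p = 0.0417 in edgeR). The FDFT1 call was lost without its lowest library (adjusted p = 0.101 in edgeR), and the ERLIN1 call held in 2 of 9 fits that left out a library (adjusted p up to 0.175 in edgeR).

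**Figure D2:**
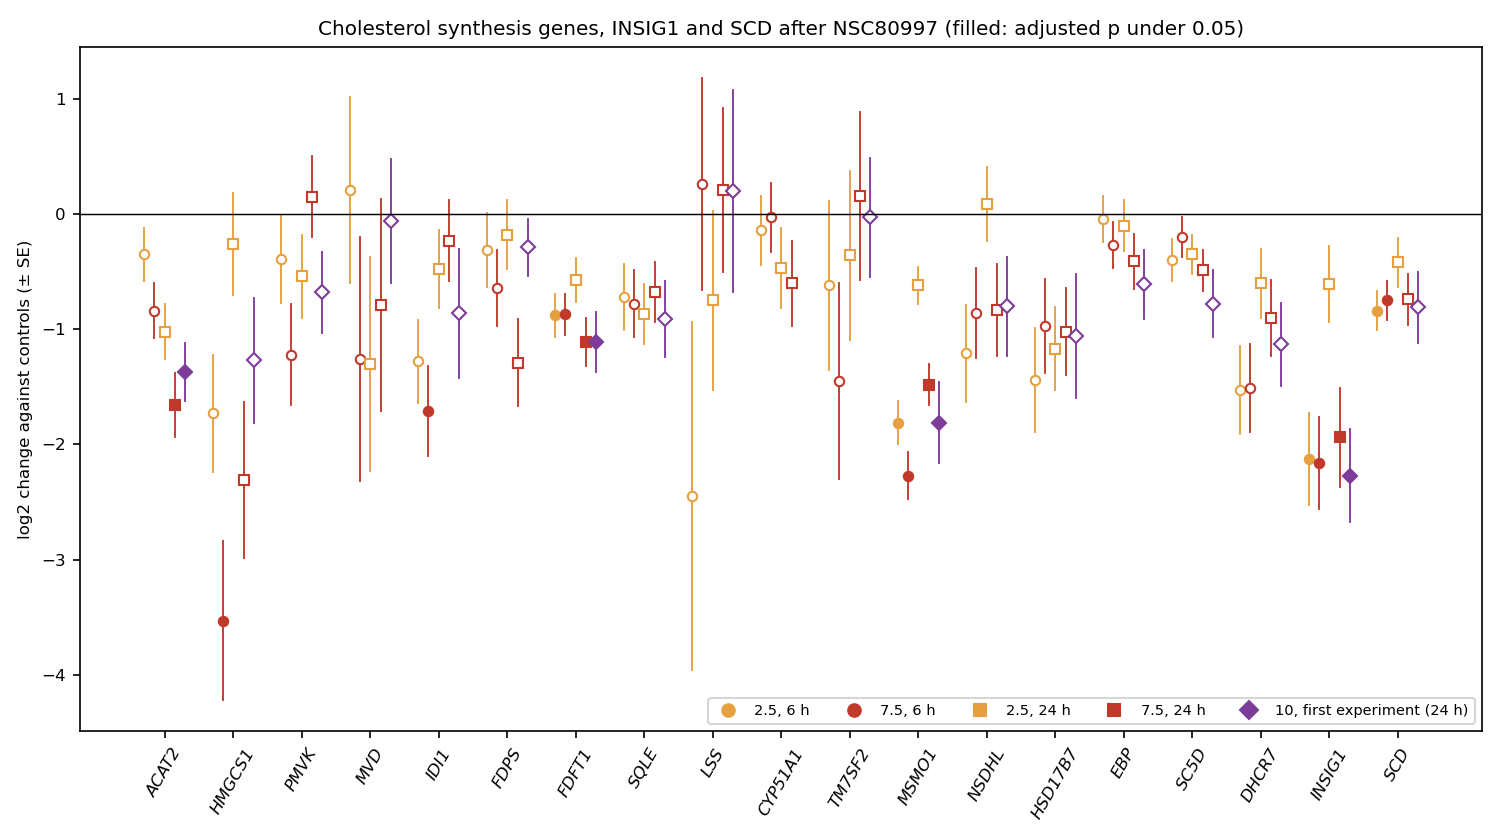
Fitted log2 change against controls (y axis, error bars ± SE) for 17 cholesterol synthesis genes, INSIG1 and SCD (x axis) at each dose and time; filled symbols passed at an adjusted p under 0.05. MVK is left out because its counts were very low. Most symbols lie below 0, and MSMO1 and INSIG1 are filled at both doses at 6 h, at 7.5 at 24 h and at 10 in the first experiment.

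ESCO2, BUB1B, ACTA2, CLU, UCP2, OAS3, MRPS27 and PSMG3 were the other named genes that fell after 7.5 for 24 h. ESCO2, an acetyltransferase of sister chromatid cohesion, was at 11.1, 22.4 and 15.3 CPM against 33.5 to 105 CPM (log2 change −1.82, SE 0.41, adjusted p = 0.0111 in edgeR). BUB1B, a kinase of the spindle checkpoint, was at 66.4, 68.6 and 77.5 CPM against 101 to 175 CPM (−0.94, SE 0.22, adjusted p = 0.0179 in edgeR). BUB1B was 1 of 2 genes called lower among the 24 tested of the G2 and mitosis list, all 24 had a change below 0, and the list's median was −0.32. Over all genes tested 0.234% were called lower, 52% had a change below 0 and the median was −0.03. The ESCO2 call held in 6 and the BUB1B call in 5 of 9 fits that left out a library (adjusted p up to 0.14 and 0.139 in edgeR).

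ACTA2, smooth muscle actin, was at 35.7, 44.8 and 43.9 CPM against 101 to 148 CPM, with no overlap and a log2 change of −1.61 (SE 0.24, adjusted p = 2.44e-06 in edgeR). CLU, the secreted chaperone clusterin, was at 33.2, 27.2 and 34.7 CPM against 55.1 to 97.4 CPM, a log2 change of −1.22 (SE 0.26, adjusted p = 0.00704 in edgeR). UCP2, a carrier of the inner mitochondrial membrane, was at 367, 329 and 326 CPM against 537 to 662 CPM, a log2 change of −0.83 (SE 0.13, adjusted p = 9.52e-06 in edgeR). In each of these 3 genes every treated library was below every control. The calls of ACTA2 and UCP2 held with any 1 library left out, and that of CLU was lost without the first or second treated library (adjusted p up to 0.0833 in edgeR). OAS3, an interferon-induced enzyme, fell by 1.12 on the log2 scale (SE 0.28, adjusted p = 0.033 in edgeR), MRPS27, a protein of the mitochondrial ribosome, by 1.34 (SE 0.35, adjusted p = 0.0417 in edgeR) and PSMG3, a proteasome assembly chaperone, by 0.87 (SE 0.23, adjusted p = 0.044 in edgeR). These 3 calls held in 3, 1 and 2 of 9 fits that left out a library.

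RNF145, VGF, B4GALT5, NR4A1 and EGR1 were among the genes that rose. RNF145, a ubiquitin ligase of the endoplasmic reticulum membrane known to respond to sterols, was at 934, 551 and 895 CPM against 197 to 416 CPM in the 24 h controls. All treated libraries were above all controls, with a log2 change of 1.32 (SE 0.19, adjusted p = 1.32e-06 in edgeR). B4GALT5, a Golgi galactosyltransferase that makes lactosylceramide, was at 386, 672 and 438 CPM against 118 to 237 CPM (log2 change 1.57, SE 0.21, adjusted p = 2.75e-07 in edgeR). CHST11, a Golgi sulfotransferase of chondroitin, was at 88.5, 67.2 and 116 CPM against 31.5 to 54.4 CPM (1.1, SE 0.25, adjusted p = 0.0111 in edgeR). LPCAT1, which remodels phosphatidylcholine, was at 91.1, 95.1 and 78.5 CPM against 29.1 to 57.1 CPM (1.08, SE 0.28, adjusted p = 0.0417 in edgeR). The calls of RNF145 and B4GALT5 held with any 1 library left out. That of CHST11 was lost without the first or the third treated library (adjusted p up to 0.196 in edgeR), and that of LPCAT1 held in 1 of 9 such fits (adjusted p up to 0.175 in edgeR).

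KDELR3, a receptor that returns proteins from the Golgi to the endoplasmic reticulum, was at 83.4, 44.1 and 41.8 CPM against 15.8 to 25.2 CPM, a log2 change of 1.44 (SE 0.33, adjusted p = 0.0155 in edgeR). COPA, the alpha subunit of the coatomer that coats vesicles on that route, was at 218, 202 and 248 CPM against 94.1 to 124 CPM, a log2 change of 1.06 (SE 0.21, adjusted p = 0.00153 in edgeR). GOLGA2, a Golgi matrix protein, was at 65.5, 72.0 and 89.8 CPM against 32.4 to 38.7 CPM, a log2 change of 1.09 (SE 0.25, adjusted p = 0.02 in edgeR). None of these 3 had overlapping groups. The COPA call held with any 1 library left out, the KDELR3 call was lost without the first treated library (adjusted p = 0.353 in edgeR) and the GOLGA2 call without the second or the third (adjusted p up to 0.157 in edgeR).

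A list of 23 coatomer, KDEL receptor and golgin genes was drawn up after these values were seen and is given as a description only. At 7.5 for 24 h 4 of the 23 were called higher (COPA, KDELR3, GOLGA2 and GOLGB1) and none lower, 20 had a change above 0 and the median was 0.45. Over all genes tested 0.381% were called higher, 52% had a change below 0 and the median was −0.03. At 6 h none was called at 7.5, where the median was 0.14.

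VGF, a secreted neuropeptide precursor induced by growth factors, was at 1104, 842 and 918 CPM against 302 to 429 CPM (log2 change 1.42, SE 0.17, adjusted p = 2.13e-09 in edgeR). NR4A1, an immediate early nuclear receptor, was at 65.5, 82.2 and 85.7 CPM against 13.1 to 42.1 CPM (1.75, SE 0.42, adjusted p = 0.0287 in edgeR). EGR1, an immediate early zinc finger factor, was at 18.7, 31.9 and 69.4 CPM against 5.29 to 17.5 CPM, with the lowest treated library just above the highest control (1.75, SE 0.44, adjusted p = 0.032 in edgeR). ARC, a neuronal activity gene, was at 45.1, 63.2 and 34.7 CPM against 13.2 to 27.0 CPM (1.24, SE 0.29, adjusted p = 0.02 in edgeR). The VGF call held with any 1 library left out, those of NR4A1, EGR1 and ARC in 5, 4 and 6 of 9 such fits, with adjusted p up to 0.111, 0.436 and 0.275 in edgeR. Of the 19 genes tested of the immediate early and MAP kinase list, EGR1 was the 1 called, 19 had a change above 0 and the median was 0.62, where 0.381% of all genes tested were called higher, 52% had a change below 0 and the median was −0.03. CHAC1, a glutathione-degrading enzyme induced by ATF4, was at 36.6, 39.4 and 36.7 CPM against 6.35 to 28.2 CPM (1.31, SE 0.33, adjusted p = 0.0371 in edgeR), and it was the 1 gene called of 23 tested on the ATF4 list. Its call held in 2 of 9 fits that left out a library (adjusted p up to 0.142 in edgeR).

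**Figure D3:**
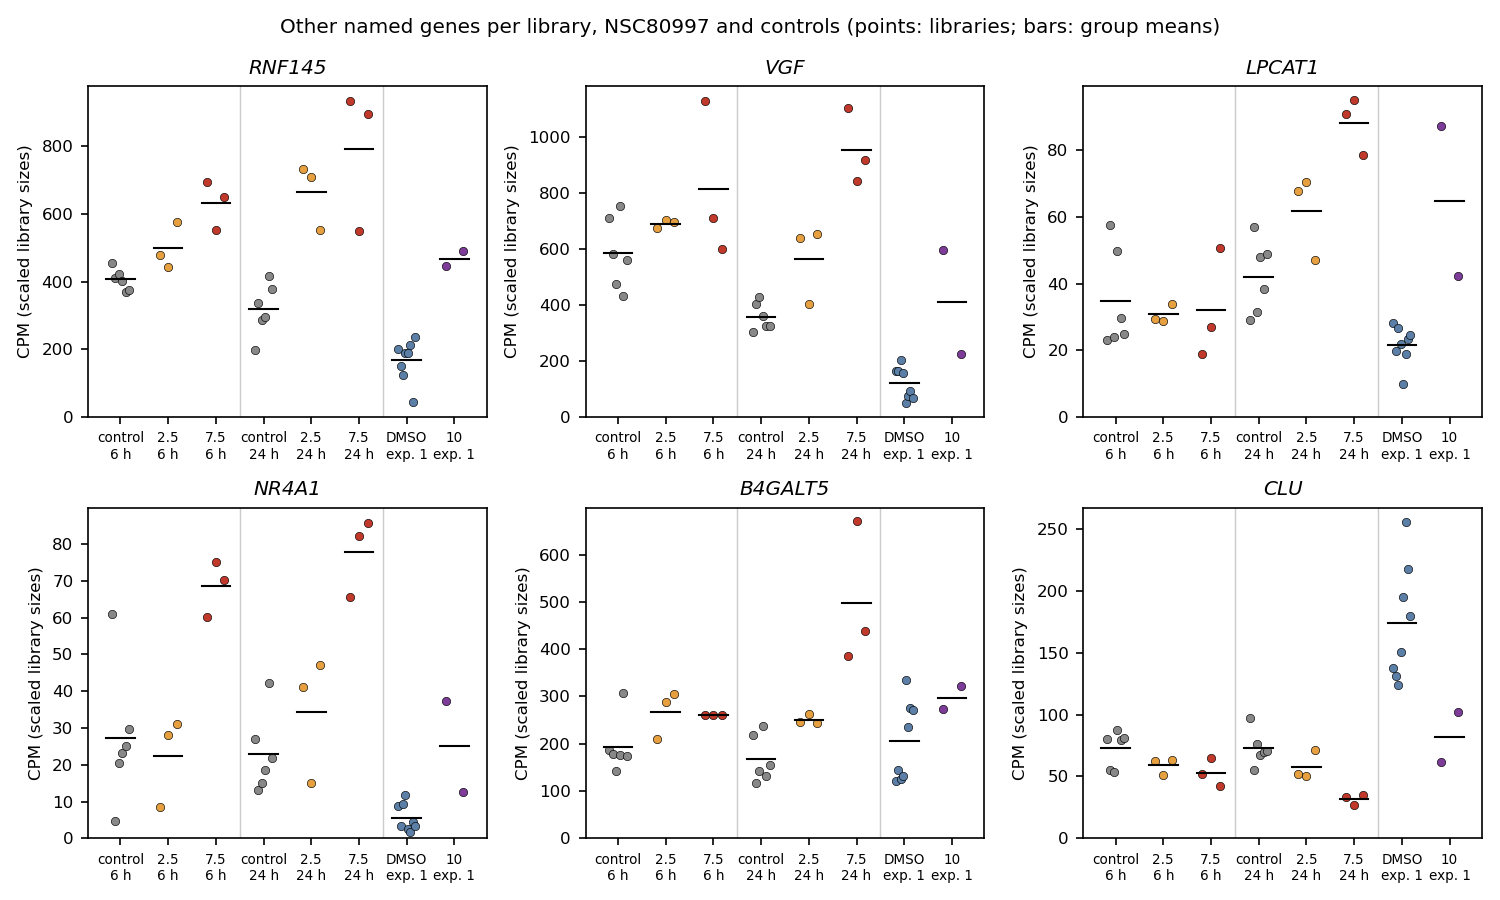
CPM per library (y axis, linear from 0) for RNF145, VGF, LPCAT1, NR4A1, B4GALT5 and CLU in the same groups as for the sterol genes, with exp. 1 for the first experiment; points are libraries and bars are group means. After 7.5 for 24 h the RNF145 points lie at 551 to 934 CPM and those of its controls at 197 to 416 CPM, and CLU is below its controls.

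After 2.5 for 24 h 1 of 11539 genes was higher (0.00867%) and 0 were lower (0%), with 662 genes at an unadjusted p under 0.05 and 2 called by DESeq2. That gene was RNF145, at 734, 708 and 554 CPM against 197 to 416 CPM, a log2 change of 1.07 (SE 0.19, adjusted p = 0.00257 in edgeR). Its call was lost without the first or the second treated library (adjusted p up to 0.123 in edgeR). None of the 20 cholesterol synthesis genes passed, and 18 had a change below 0, where 51.2% of all genes tested did. Their median log2 change was −0.55 against −0.01 over all genes tested. In 5 of the 20 every treated library lay below every control, as in 1.38% of all genes tested. MSMO1 was 1 of these, at 151, 159 and 190 CPM against 213 to 320 CPM (log2 change −0.62, SE 0.16, adjusted p = 0.326 in edgeR). INSIG1, at 48.0, 21.5 and 50.3 CPM against 41.0 to 80.7 CPM, overlapped its controls (−0.61, 95% interval −1.27 to 0.06, adjusted p = 0.877 in edgeR).

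The fall of MSMO1 at 2.5 was smaller at 24 h than at 6 h, tested as the difference between the responses at the 2 times. It differed by 1.19 on the log2 scale (SE 0.24, adjusted p = 0.00946 in edgeR), from −1.81 at 6 h to −0.62 at 24 h. The difference was lost without the first or the third 6 h library or the third 24 h library of NSC80997 at 2.5 (adjusted p up to 0.149 in edgeR). MSMO1 was among 3 genes with a higher response at 24 h (0.0248% of 12121 tested) and 1 with a lower one (0.00825%) at this dose, a comparison added after the data were seen. At 7.5, 1 gene differed as higher (0.00825%) and 0 as lower (0%), with 891 at an unadjusted p under 0.05 and 16 called by DESeq2. That 1 gene was LOC100506675, an uncharacterised locus, and it rested on 1 library of 922 CPM beside 12.8 and 17.3 CPM. For MSMO1 at 7.5 the difference was 0.79 (95% interval 0.27 to 1.31, adjusted p = 0.396 in edgeR) and for INSIG1 0.22 (−1.11 to 1.55, adjusted p = 0.967 in edgeR).

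The 2 doses were compared directly at each time, without the control wells. At 6 h no gene passed in either direction (0% lower), with 654 genes at an unadjusted p under 0.05 and 0 called by DESeq2. The log2 difference of 7.5 from 2.5 was −0.46 for MSMO1 (95% interval −0.94 to 0.01) and −0.03 for INSIG1 (−1.20 to 1.15). At 24 h 5 genes were lower (0.0433%) and 8 higher (0.0693%) at 7.5 than at 2.5, and none of these 13 was a cholesterol synthesis gene. The count of 13 became 0 with only the 2 NSC80997 groups in the fit, 2 with the older quasi-likelihood method, 43 with DESeq2 and 1 to 8 with 1 library left out. ESCO2 (−1.90, SE 0.44, adjusted p = 0.0424 in edgeR) and UCP2 (−0.67, SE 0.15, adjusted p = 0.0278 in edgeR) were lower, and FAM114A1 was higher (1.64, SE 0.37, adjusted p = 0.0367 in edgeR). The difference of MSMO1 at 24 h was −0.86 (95% interval −1.27 to −0.44, adjusted p = 0.0639 in edgeR) and that of INSIG1 −1.33 (−2.34 to −0.32, adjusted p = 0.332 in edgeR).

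In the first experiment, fitted with the plate as a block, 7 of 13438 genes were lower (0.0521%) and 7 higher (0.0521%) after NSC80997 at 10 than in the DMSO wells, and 13 of the 14 had groups that did not overlap. Both treated wells lay above all DMSO wells in 2.02% of all genes tested. Without the plate block 4 genes were called. With only NSC80997 and DMSO wells in the fit 6 were called, and then 0 without the NSC80997 well of the first plate and 2 without that of the second. The falls again held MSMO1, ACAT2, FDFT1 and INSIG1, with CLU, UCP2 and LETMD1. MSMO1 was at 25.3 and 13.5 CPM against 49.3 to 91.5 CPM (median 73.5) in the DMSO wells, a log2 change of −1.81 (SE 0.35, adjusted p = 0.00192 in edgeR). INSIG1 was at 10.1 and 10.4 CPM against 23.0 to 71.2 CPM (median 52.1), a log2 change of −2.27 (SE 0.40, adjusted p = 4.41e-04 in edgeR). ACAT2 was at 76.4 and 105 CPM against 171 to 279 CPM (median 234), a log2 change of −1.37 (SE 0.25, adjusted p = 7.92e-04 in edgeR). FDFT1 was at 47.0 and 32.6 CPM against 64.8 to 131 CPM (median 83.6), a log2 change of −1.11 (SE 0.26, adjusted p = 0.0377 in edgeR). In all 4 genes both treated wells were under all 8 DMSO wells. In 10 fits that each left out a library, with only NSC80997 and DMSO wells, the MSMO1 call held in 7, the ACAT2 call in 6, the INSIG1 call in 1 and the FDFT1, CLU and UCP2 calls in 0 (adjusted p up to 0.521, 0.63, 0.63, 0.846, 0.711 and 0.912 in edgeR). Of 7 other settings MSMO1 and ACAT2 held under 7, INSIG1 under 6, CLU under 4, and FDFT1 and UCP2 under 3.

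Of the 19 cholesterol synthesis genes tested in this experiment 3 were lower and none higher, where 0.0521% of all genes tested were lower. A change below 0 was fitted for 17 of the 19, where 55.1% of all genes tested had one. The median log2 change was −0.86 against −0.06 over all genes tested. In 5 of the 19 both treated wells lay below all DMSO wells, as in 2.05% of all genes tested. HMGCS1 was at 6.58 and 4.78 CPM against 6.91 to 23.0 CPM (log2 change −1.27, SE 0.54, adjusted p = 0.677 in edgeR). It did not pass, and its groups did not overlap.

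The rises in this experiment were RNF145, VGF, LPCAT1, FAM114A1, NR4A1, GOLGA3 and PRDM8. RNF145 was at 445 and 491 CPM against 44.6 to 237 CPM (log2 change 1.47, SE 0.26, adjusted p = 4.41e-04 in edgeR). VGF was at 596 and 225 CPM against 48.7 to 202 CPM (1.73, SE 0.26, adjusted p = 7.42e-06 in edgeR). The second well was only just above the highest DMSO well of both plates, a range that does not account for the plate. Without the plate block the VGF call was lost (adjusted p = 0.814 in edgeR). LPCAT1 was at 87.5 and 42.2 CPM against 9.74 to 28.2 CPM (1.55, SE 0.29, adjusted p = 0.00109 in edgeR). Its call was also lost without the plate block (adjusted p = 0.359 in edgeR). Of the 23 coatomer, KDEL receptor and golgin genes 1 was called, the golgin GOLGA3, at 32.4 and 15.1 CPM against 4.21 to 13.4 CPM, beside 0.0521% called higher of all genes tested. The GOLGA3 call held under 1 of 7 other settings and in 0 of 10 fits that left out a library (adjusted p up to 0.931 in edgeR). With a library left out the VGF call held in 9 of 10 fits, the LPCAT1 call in 5 and the RNF145 call in 1. LETMD1 was called lower with groups that overlapped, at 2.53 and 0 CPM against 0 to 408 CPM with a median of 1.18 CPM.

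**Figure D4:**
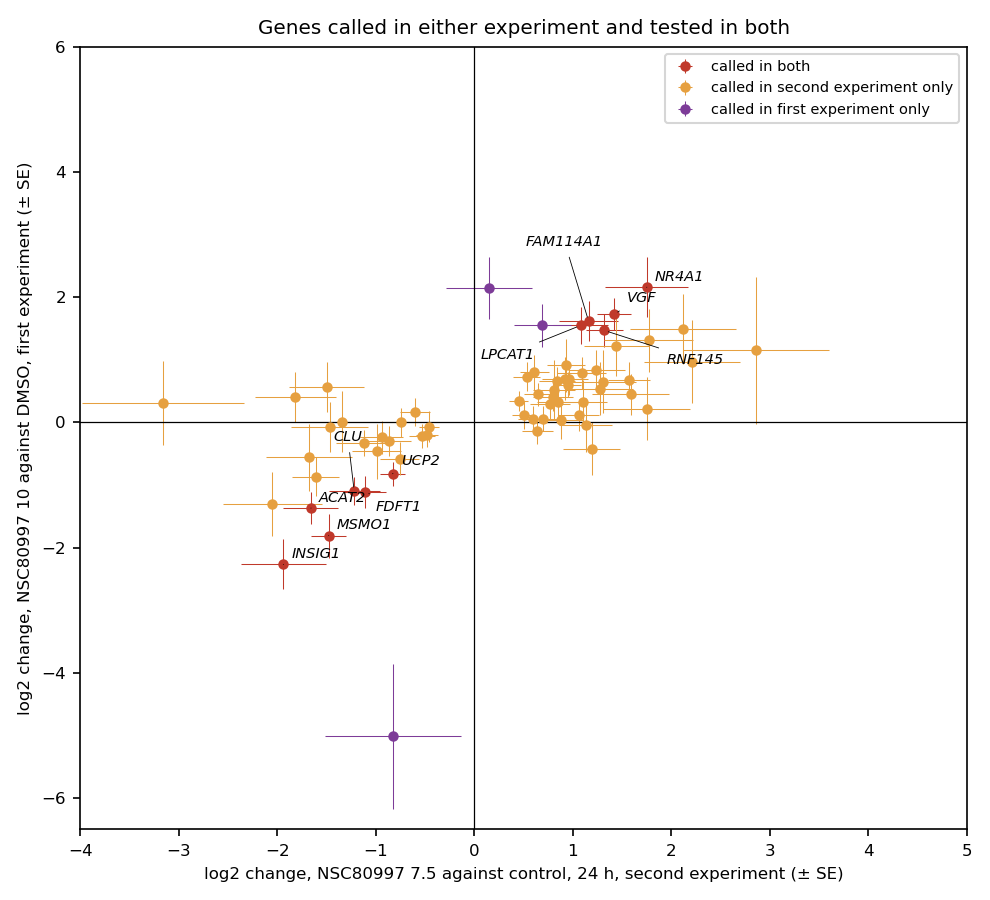
Log2 change after NSC80997 at 7.5 for 24 h in the second experiment (x axis, ± SE) against that at 10 in the first experiment (y axis, ± SE), for genes called in either and tested in both. Each point is a gene. The 11 genes called in both, named in the plot, lie in the lower left or upper right part of the plot.

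The first and second experiments share no libraries. Of the 14 genes called in the first, 11 were also called after 7.5 for 24 h in the second, which is 78.6% of the 14 and 15.5% of the 71, and 11 of these 11 had the same direction. They were MSMO1, ACAT2, FDFT1, INSIG1, CLU and UCP2 among the falls and RNF145, VGF, LPCAT1, FAM114A1 and NR4A1 among the rises. In the second experiment the FAM114A1 call held in 1 of 9 fits that left out a library (adjusted p up to 0.355 in edgeR). In the first it was lost without the plate block (adjusted p = 0.6 in edgeR), and the NR4A1 call there held under 4 of 7 other settings. Of the 71 genes called in the second experiment 63 were tested in the first, and 55 of these had a change of the same sign there (19 of 24 falls and 36 of 39 rises), where 55.7% of all 10014 genes tested in both did. The 8 genes called at 6 h and 7.5 all had a negative change at 24 h as well, as 8 of 8 did in the first experiment, where 52.3% and 52.8% of all genes tested in both comparisons had the same sign.

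Sterol genes were also set against the other treatments of the second experiment. Against the mean of the other 14 compounds, each at its higher dose and with no control well in the comparison, 10 of 11460 genes were lower with NSC80997 at 7.5 at 6 h (0.0873%) and 3 were higher. The compounds in that mean lay on both sides of the controls. For MSMO1 at 6 h they ran from 244 CPM with NSC255109 at 2.5 to 679 CPM with narasin at 1, against 311 CPM in the controls. The 10 lower genes held MSMO1 (log2 difference −2.47, SE 0.18, adjusted p = 8.29e-20 in edgeR), HMGCS1 (−3.47, SE 0.64, adjusted p = 7.16e-04 in edgeR) and INSIG1 (−2.35, SE 0.36, adjusted p = 1.91e-05 in edgeR). IDI1, FDFT1 and SCD were also among the 10. At 24 h 51 genes were lower (0.442%) and 160 higher (1.39%), and the lower ones held 5 of the 20 cholesterol synthesis genes. MSMO1 differed by −1.44 (SE 0.17, adjusted p = 4.75e-10 in edgeR), INSIG1 by −2.10 (SE 0.39, adjusted p = 2.55e-04 in edgeR) and HMGCS1 by −2.51 (SE 0.62, adjusted p = 0.0115 in edgeR). RNF145 was higher by 1.24 (SE 0.15, adjusted p = 2.15e-09 in edgeR). The 211 genes called at 24 h became 101 without the first and 123 without the third NSC80997 library.

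Across the 31 groups of each time, MSMO1, INSIG1, HMGCS1 and FDFT1 each had their lowest mean with NSC80997 at 7.5, at 6 h and at 24 h, and at 6 h 2.5 gave the next lowest. At 6 h MSMO1 averaged 64.8 CPM ± 22.4 (SD, n = 3) at 7.5 and 88.7 ± 3.07 (SD, n = 3) at 2.5, and the next group, NSC255109 at 0.85, was at 227 ± 15.1 (SD, n = 3), above the spread of both. At 24 h MSMO1 was at 92 ± 0.295 (SD, n = 3), and the next group, mycophenolate at 2.5, ranged from 92.9 to 142 CPM, just above it. INSIG1 at 24 h was at 15.1 ± 7.0 (SD, n = 3), and the next group, podofilox at 0.33, ranged from 11.1 to 36.6 CPM and overlapped it. At 24 h the highest INSIG1 means were those of narasin, a polyether ionophore, and cerivastatin, at 293 CPM with narasin at 1 and 201 CPM with cerivastatin at 5. At 6 h NSC305798 at 5 came after both narasin doses, with 524 CPM for MSMO1 and 132 CPM for INSIG1. NSC80997 at 2.5 ranked 7 of 31 from the lowest for both MSMO1 and INSIG1 at 24 h.

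**Figure D5:**
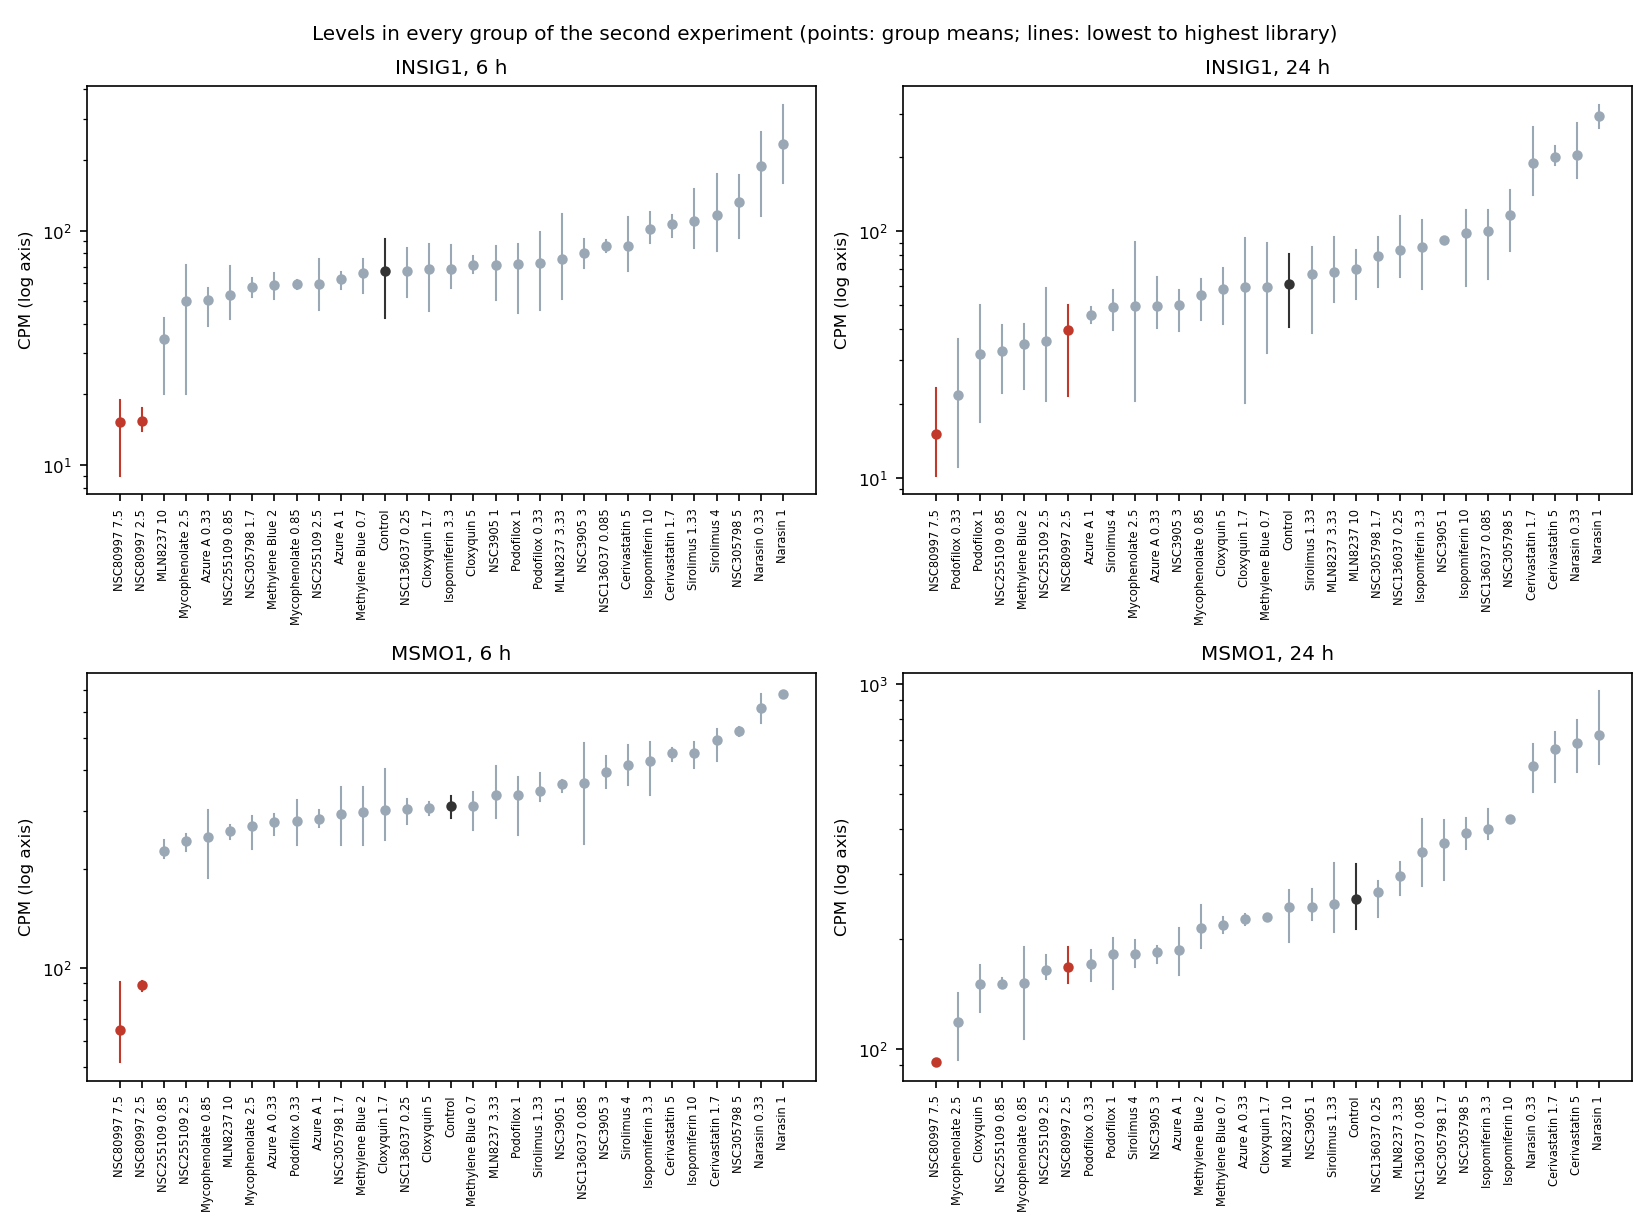
INSIG1 and MSMO1 in every group of the second experiment at 6 h and 24 h, ordered by mean (x axis, treatment and labelled dose; y axis, CPM on a log axis). Points are group means and lines run from the lowest to the highest library. NSC80997 at 7.5 is leftmost in all 4 panels, and narasin at 1 is rightmost.

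Cerivastatin, a statin, which blocks cholesterol synthesis and so has a known action on this pathway, was also given in that experiment. Its labelled dose of 5 is not that of NSC80997, so the values stand side by side. At 6 h 12 of 11460 genes were lower with NSC80997 at 7.5 than with cerivastatin at 5 (0.105%), and at 24 h 92 of 11539 were lower (0.797%) and 83 higher (0.719%). The lower genes held 5 of the 20 cholesterol synthesis genes at 6 h and 14 of 20 at 24 h, with a median log2 difference over the 20 of −1.03 and −2.14. Over both directions 13 genes were called at 6 h and 175 at 24 h; these became 6 without the third NSC80997 library at 6 h and 101 without the first cerivastatin library at 24 h, the lowest counts of such fits. At 24 h MSMO1 averaged 690 CPM with cerivastatin and 92 with NSC80997, HMGCS1 93.9 against 3.57 CPM, and FDFT1 408 against 79.9 CPM. These groups lie on either side of the 24 h controls, whose means were 257, 18.3 and 176 CPM. RNF145 went another way: it averaged 766 CPM with cerivastatin at 5 and 793 CPM with NSC80997 at 7.5, the highest groups of the 31, against 318 CPM in the controls. The log2 difference between these compounds was 0.05 (95% interval −0.40 to 0.49).

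At 7.5 for 24 h 1 of 18 genes tested of the p53 list was called higher, where 0.381% of all genes tested were. At that dose and time 1 of 16 genes tested of nucleotide synthesis was called lower, where 0.234% of all genes tested were. The groups named next had no calls in the comparisons given. Of 8 genes of LXR targets and sterol efflux 5 were tested at 24 h and none was called, and of 12 genes tested of the branch from farnesyl and geranylgeranyl groups to prenylation none was called at 7.5 at either time. None of 17 genes of the unfolded protein response, 19 NRF2 genes and 15 heat shock genes was called at 7.5 at 24 h. MYCN was at 402, 878 and 318 CPM after 7.5 for 6 h against 600 to 1937 CPM, and at 352, 799 and 335 CPM after 24 h against 609 to 1316 CPM. Its groups overlapped at both times, and the log2 changes of −0.92 (95% interval −1.62 to −0.23) and −0.87 (−1.59 to −0.14) did not pass (adjusted p = 0.544 and 0.32 in edgeR). TEAD4, which acts with MYCN in neuroblastoma, was at most 19.8 CPM in all these libraries and was not called.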

How the data were processed

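RNA of SK-N-BE(2) wells was measured by PLATE-Seq, a pooled RNA-seq method for multi-well plates, per the labels. The authors deposited counts per gene for each experiment. STAR and GRCh38 are named in the submitters' processing notes, and the counting step is not given in the sources used here. In the first experiment's table the 92 spike-in rows, at most 0.477% of a library's counts, were left out.

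Counts were scaled by TMM and fitted with edgeR 4.0.16 in R 4.3.3 (quasi-likelihood, two-sided, filterByExpr with a minimum count of 10, Benjamini-Hochberg adjustment, threshold 0.05). Each second-experiment fit held all 31 groups of a time (96 libraries), or both times for differences between times. The first experiment's fit held 192 libraries with the plate as a block, since the labels give duplicate plates; deviations of libraries on the same plate had a median correlation of 0.58. Alternatives used DESeq2 1.42.0, other scaling, filters, samples and blocks, and leaving out each library. The fitting script was tested on simulated data. Intervals are 95%.

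The members and gene lists were chosen with earlier results of these data known. Named genes were called members of the sterol and fatty acid lists, the 12 largest rises and 12 largest falls per comparison with controls among called genes with non-overlapping groups and a mean of 30 CPM in a group, the leading genes of other lists, and INSIG1, HMGCS1, FDFT1, MYCN and TEAD4. LETMD1, PRDM8, GOLGA3, GOLGB1, KCNH2, LMOD3 and LOC100506675 were chosen after their values were seen. Counts over all genes and over lists include a few genes whose own values are not reported here.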

Additional observations from a re-analysis of the deposited data

Results flagged for a closer look

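Of 128 groups of control libraries tested for a sample far from the others, 6 held one, and chance flags about 1 in 20 groups. In the DMSO wells of the first experiment the highest DHCR7 value was 87.0 CPM and the highest LETMD1 value 408 CPM. In the 6 h controls 1 library stood apart with 307 CPM for B4GALT5 and 1 with 186 CPM for COPA. In the 24 h controls MRPS27 had a lowest value of 31.2 CPM and PRDM8 a highest value of 40.6 CPM.

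The response to NSC80997 differed between 24 h and 6 h for 4 genes described here, by the test of the difference itself. At 2.5 the log2 difference was 1.19 for MSMO1. KCNH2, a potassium channel, differed by −1.82 (SE 0.33, adjusted p = 0.00166 in edgeR), from 0.74 at 6 h to −1.08 at 24 h, with 283, 375 and 381 counts at 6 h and 244, 133 and 138 at 24 h. LMOD3 had a fitted difference of 10.93 (SE 2.35, adjusted p = 0.0321 in edgeR) that rests on 1 library with 68 counts beside 1 and 0 in the other two, and the fitted value is no bound. At 7.5 LOC100506675 differed by 4.62 (SE 0.67, adjusted p = 1.91e-06 in edgeR), with 12.8, 922 and 17.3 CPM at 24 h.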

How the results depend on the processing

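Leaving out 1 library at a time gave between 4 and 9 called genes for 7.5 against control at 6 h, 3 and 6 for 2.5 at 6 h, 22 and 56 for 7.5 at 24 h and 0 and 2 for 2.5 at 24 h. It gave between 0 and 1 for the doses compared at 6 h, 1 and 8 at 24 h, 1 and 2 for the difference between times at 7.5, and 1 and 4 at 2.5. Against the other compounds it gave between 10 and 15 at 6 h and 101 and 212 at 24 h, against cerivastatin 6 and 11 at 6 h and 101 and 125 at 24 h, and in the first experiment 0 and 7, there with only the groups compared in the fit. For LOC100506675 after 7.5 for 24 h the log2 change ran from −0.20 without the second treated library, a reversed direction, to 4.82 without the first. Of 57 calls of named genes 12 held under all alternatives run for them: MSMO1 at both doses at 6 h, and MSMO1, ACAT2, ACTA2, B4GALT5, COPA, H19, RGS4, RNF145, UCP2 and VGF after 7.5 for 24 h.

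With DESeq2 the called genes were 13 for 7.5 at 6 h, 117 at 24 h, 2 for 2.5 at 24 h, 43 for the doses at 24 h, 16 for the times at 7.5 and 22 against the other compounds at 6 h. In several of these DESeq2 adjusted over fewer genes than edgeR. These were 7016 genes for 7.5 at 6 h, 3262 at 24 h and 1696 for the doses at 24 h. For the times at 7.5 there were 1076, and against the other compounds at 6 h 6350. Without a filter on low counts they were 22 and 11 at 6 h for 7.5 and 2.5, 9 for 2.5 at 24 h, 1 and 39 for the doses at 6 h and 24 h, 14 and 9 for the times at 7.5 and 2.5, 38 against the other compounds and 26 against cerivastatin at 6 h, and 24 in the first experiment. With only the groups compared they were 5 for 7.5 at 6 h, 29 at 24 h, 2 for 2.5 at 24 h, 0 for the doses at 24 h, 0 and 1 for the times, 8 and 109 against cerivastatin at 6 h and 24 h, and 6 in the first experiment. The older quasi-likelihood method gave 35 for 7.5 at 24 h, 2 for the doses at 24 h and 8 in the first experiment. The causes were not tested.

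Same-numbered wells of the second experiment did not deviate together (median correlation −0.00041 at 6 h and 0.000425 at 24 h). A replicate block there gave 7, 5, 69 and 1 called genes for 7.5 and 2.5 at 6 h and then at 24 h, 0 and 12 for the doses, 1 and 3 for the times, 12 and 216 against the other compounds and 13 and 180 against cerivastatin. The call lost for 7.5 at 6 h under the block was IDI1. In the first experiment 4 genes were called without the plate block.

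A DESeq2 fit and leave-one-out fits of all groups of the first experiment were not run. A DESeq2 fit of only the groups compared, chosen after seeing the data, called 20 genes there. At these depths genes with few counts such as HMGCS1 and MVK are known imprecisely.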

Other observations

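H19 and RGS4, on none of the sterol lists, rose after NSC80997 at 7.5 for 24 h with every treated library above every control. H19, an imprinted long non-coding RNA, was at 2038 to 2433 CPM against 1027 to 1237 CPM in the 24 h controls, a log2 change of 0.95 (SE 0.13, adjusted p = 3.76e-07 in edgeR). RGS4, a regulator that speeds the turning off of G protein signals, was at 727 to 1140 CPM against 412 to 503 CPM, a log2 change of 0.96 (SE 0.14, adjusted p = 2.60e-06 in edgeR). Against the mean of the other 14 compounds at 24 h H19 was higher by 0.99 (SE 0.10) and RGS4 by 1.01 (SE 0.11) on the log2 scale, and both passed that test (adjusted p = 1.75e-11 and 2.93e-10 in edgeR).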
